A study of Mus musculus with 4 samples.

Results

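Interferon regulatory factors (IRFs) are transcription factors that bind GAAA-type elements in interferon and interferon-responsive genes. Followed by name were the 8 Irf genes expressed in immune cells (Irf1, Irf2, Irf3, Irf4, Irf5, Irf7, Irf8 and Irf9). They are 8 of the 31053 genes counted in each of 4 libraries. The rule itself uses no measured value, but the members were chosen with earlier results of these data known. The measure was single-cell 3' RNA sequencing, given as unique molecular identifiers (UMIs), each of which stands for 1 captured RNA molecule. Levels are UMIs of a gene per 10000 UMIs summed over the cells of a type in a library, and they compare 1 gene between cell types or groups, not one gene with another.

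Live CD45+ (DAPI-negative) cells were sorted from control skins and from excised tumors after collagenase IV digestion. The control skin group was 2 skins of C57/BL6 mice that received no tumor cells. The 2323 tumor group was 2 tumors that grew in C57/BL6 hosts from subcutaneously injected cells of the 2323 line. That line was derived from a graft of a ktiKPP tumor, a keratinocyte tumor model with loss of p53 in which K14-driven rtTA and tetO-Cre switch the alleles. Hosts were 8 to 10 weeks old and tumors were taken about 2 weeks after injection, and the age of the control mice was not given in the sources used here. All tumor cells come from 1 line, so the tumors are not separate tumor genotypes.

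Of 12848 cells that passed the filters, 7268 (56.6%) fell into 1 of 15 gates set on lineage markers, none of which is an Irf gene, and cell type names here are names of gates. The libraries held 34893543 to 73904272 UMIs, with 1994 to 4784 passing cells each at a median of 10610 to 13361.5 UMIs per cell, and any pair of libraries shared at most 7 barcodes. In 10 gates every library held at least 10 cells, and these were tested. They were type 1 and type 2 conventional dendritic cells (cDC1 and cDC2), C1q-high macrophages, monocyte-like cells, neutrophils, mast cells, CD8 T cells, CD4 conventional T cells, regulatory T cells (Tregs) and NK cells. Langerhans cells, mature DCs, dendritic epidermal T cells (DETCs), dermal γδ T cells and group 2 innate lymphoid cells (ILC2s) were too few in tumors or in control skins, and only their levels are given.

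The family works in layers. IRF3 and IRF7 lie latent in the cytosol until kinases below nucleic acid sensors phosphorylate them, and they then switch on type I interferon genes. IRF9 is the DNA-binding part of the complex ISGF3, which carries the type I interferon signal to antiviral genes. IRF1 is induced above all by interferon gamma and drives genes of antigen processing, while IRF2 binds the same element and can oppose it. IRF4, IRF5 and IRF8 are more restricted to immune cells. IRF8 is needed for cDC1 and shapes monocytes and macrophages, IRF4 serves cDC2 and activated T cells, and IRF5 acts below Toll-like receptors in myeloid cells.

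All coordinates are in GRCm38, the mm10 assembly. Irf1 (ENSMUSG00000018899) lies on the plus strand of chr11:53770014-53778374. Irf2 (ENSMUSG00000031627) lies on the plus strand of chr8:46739732-46847458. Irf8 (ENSMUSG00000041515) lies on the plus strand of chr8:120736358-120756694, and Irf7 (ENSMUSG00000025498) on the minus strand of chr7:141262706-141266481. The Irf8 locus lies inside the same-strand annotation Gm20388, with which it shares 0 of its 7055 exon bases, and Gm20388 itself was not called in CD8 T cells (log2 fold change -0.46, adjusted p = 0.210). Irf9 (ENSMUSG00000002325, chr14:55603571-55610030) shares 123 of 5386 exon bases with Rnf31 on the same strand. Irf3 (ENSMUSG00000003184, chr7:44997648-45002848), Irf4 (ENSMUSG00000021356, chr13:30749226-30766976) and Irf5 (ENSMUSG00000029771, chr6:29526625-29541871) lie on their plus strands, and Irf3, Irf5 and Irf7 overlap genes of the opposite strand.

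The promoters of Irf1, Irf2 and Irf8 are shown because each of these genes was called higher in a tumor cell type and because a search found a motif in each. RefSeq promoters (GRCm38.p6, 250 bases before to 50 after a start) were found for 8 of 8 members, in 11 windows. Both strands were searched for TTCNNNGAA, the gamma-activated sequence (GAS) of interferon gamma responses. They were also searched for a core of the interferon-stimulated response element (ISRE), written as GAAA, any 2 bases and GAAA, and for a composite element of PU.1 and an IRF, written as GGAA, any 2 bases and GAAA. Capitals mark the matches, and the sequences run 5′ to 3′ on the gene's strand.
Irf1 (plus strand, chr11:53769764-53770063): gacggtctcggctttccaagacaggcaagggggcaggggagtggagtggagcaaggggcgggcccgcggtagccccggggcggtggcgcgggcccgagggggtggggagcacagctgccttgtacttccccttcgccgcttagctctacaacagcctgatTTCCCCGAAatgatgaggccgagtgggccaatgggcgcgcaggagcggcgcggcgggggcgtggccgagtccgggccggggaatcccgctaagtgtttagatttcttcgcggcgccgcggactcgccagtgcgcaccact
Irf2 (plus strand, chr8:46739495-46739794): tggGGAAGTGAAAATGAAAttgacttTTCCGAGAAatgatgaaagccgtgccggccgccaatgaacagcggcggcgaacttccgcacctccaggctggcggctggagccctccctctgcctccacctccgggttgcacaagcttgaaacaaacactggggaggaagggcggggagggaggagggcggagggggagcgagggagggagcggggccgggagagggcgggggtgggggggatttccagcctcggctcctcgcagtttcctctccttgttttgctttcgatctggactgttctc
Irf8 (plus strand, chr8:120736108-120736407): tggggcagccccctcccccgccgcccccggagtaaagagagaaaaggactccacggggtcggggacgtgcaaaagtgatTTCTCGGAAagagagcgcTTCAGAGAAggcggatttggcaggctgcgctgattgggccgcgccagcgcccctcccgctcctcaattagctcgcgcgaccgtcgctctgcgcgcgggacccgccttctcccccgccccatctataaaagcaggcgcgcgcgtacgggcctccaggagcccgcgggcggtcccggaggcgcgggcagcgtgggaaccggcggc
Irf1 held 1 GAS match, from 90 to 82 bases before the start. Irf8 held 2, from 171 to 163 and from 153 to 145 bases before. Irf2 held 1 GAS match at 224 to 216 bases before the start, beside an ISRE match at 241 to 232 and a composite match at 247 to 238, which overlap each other. Of 32851 promoters of this length, 8.3% held a GAS match, 0.457% held at least 2, 3.44% held an ISRE match and 2.72% a composite match. The windows of the other 5 members, Irf7 included, held none of these letters. The matches are a description of these windows and were not tested for binding.

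In control skin, each Irf gene had its own order of cell types. Irf8 had 9.79 and 7.24 UMIs per 10000 in cDC1 and 6.96 and 6.16 in NK cells of the 2 control libraries. Langerhans cells (1.53 and 1.13), C1q-high macrophages (1.21 and 1.31) and monocyte-like cells (0.901 and 1.13) stood well below, and DETCs (0.101 and 0.0629) lay near the bottom. Over the 14 types with at least 10 cells in each control library, 8 of 13 neighbour pairs in the Irf8 order overlapped. The levels of cDC1 and NK cells were apart from each other and from those below, while Langerhans cells overlapped with macrophages.

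Irf4 and Irf5 divided the same cells in other ways. Irf4 was highest in Tregs (1.29 and 0.586), ILC2s (0.98 and 0.798) and cDC2 (0.663 and 0.79). In cDC1 it gave 0 and 1 UMIs in all, so that cDC1 had the highest Irf8 with almost no Irf4. Irf5 was higher in the myeloid types other than mast cells. It had 3.1 and 2.13 UMIs per 10000 in cDC1, 1.57 and 2.17 in cDC2 and 1.87 and 1.61 in monocyte-like cells. CD8 T cells had 0.0996 and 0.0591. Mast cells had a mean of 0.197, below the mean of 0.338 in Tregs. Irf7 was highest in monocyte-like cells (1.04 and 1.95), C1q-high macrophages (0.987 and 1.2) and neutrophils (0.665 and 1.2). No other type of these 14 passed 0.482 in a control library.

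Irf1, Irf2, Irf3 and Irf9 were spread more evenly. Control means of Irf1 ran from 0.209 in Langerhans cells to 1.09 in CD4 conventional T cells, and all 13 neighbour pairs overlapped. Those of Irf2 ran from 0.698 in Langerhans cells to 1.54 in Tregs. Irf3, the latent factor below the sensors, had control means between 0.0507 and 0.199, again with all 13 neighbour pairs overlapping. Irf9 ran from 0.0842 in dermal γδ T cells to 0.589 in cDC1.

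**Figure D1:**
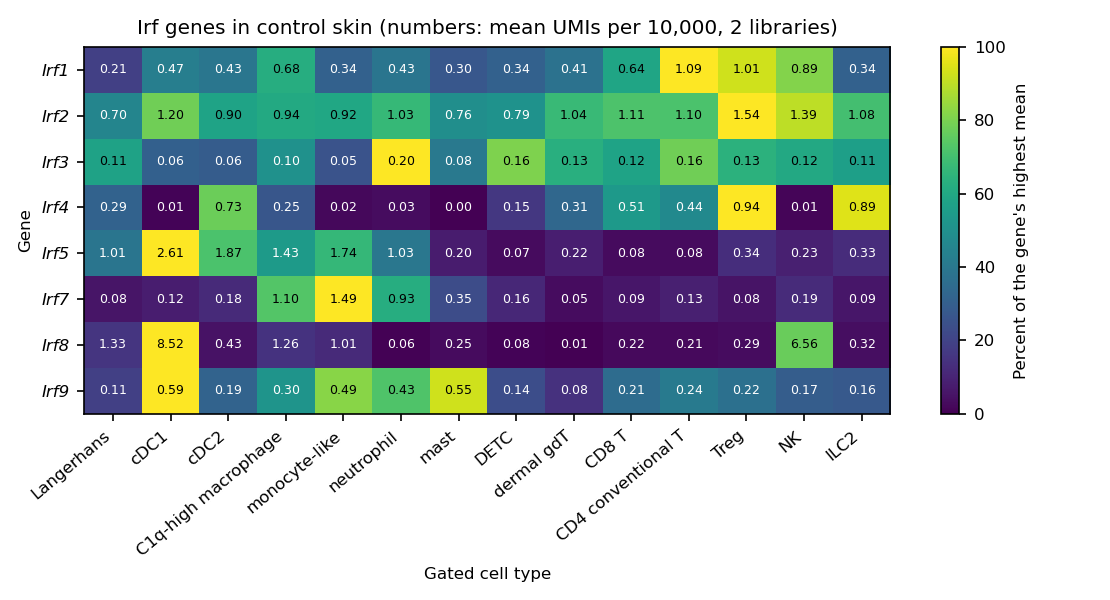
Levels of the 8 Irf genes in control skin. Rows are genes, columns are gated cell types, printed numbers are the mean UMIs per 10000 over the 2 control libraries, and color gives that mean as percent of the gene's highest mean, so colors compare types within a gene. Irf8 peaked in cDC1 (8.52) and NK cells (6.56), Irf5 in cDC1 (2.61), and Irf4 in Tregs (0.936).

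The question of the comparison was how immune cells of the tumor differ from those of control skin. In the tumors the Irf genes that moved were higher. Of 60 tests of a member in a cell type that passed the count filter, 7 were called higher at an adjusted p under 0.05 (edgeR quasi-likelihood test, Benjamini-Hochberg adjustment over all genes of the type) and 0 lower. Over all genes in the same 10 types, 2.25% of 62775 tests were called higher and 2.31% lower. The 7 calls were Irf8 in CD8 T cells and cDC2, Irf1 in CD8 T cells, cDC2 and monocyte-like cells, Irf7 in cDC2, and Irf2 in CD4 conventional T cells. At an unadjusted p under 0.05, 25 tests were higher (9.2% of all tests) and 0 lower. With DESeq2, 9 were called higher (1.46% of all tests) and 0 lower.

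By cell type, cDC2 had 3 of 8 members called higher where 4.42% of all its genes were called higher, and CD8 T cells had 2 of 8 (5.26% of all genes). Monocyte-like cells had 1 of 6 (0.532%) and CD4 conventional T cells 1 of 7 (6.05%). No member was called in cDC1, macrophages, neutrophils, Tregs or NK cells, where 0.494%, 0.162%, 0.107%, 1.23% and 1.62% of all genes were called higher. No member passed the count filter in mast cells. The median log2 fold change was 0.77 over the 60 member tests and 0.03 over all genes. In 41 of 60 tests both tumors lay above both control skins, against 32.3% of all genes, and in 1 both lay below, against 18.5%. The count filter keeps a gene with enough counts in the libraries of either group. A gene scarce in control skin is therefore tested only where its tumor counts are high, and the reverse. This holds for the members and for all genes alike.

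**Figure D2:**
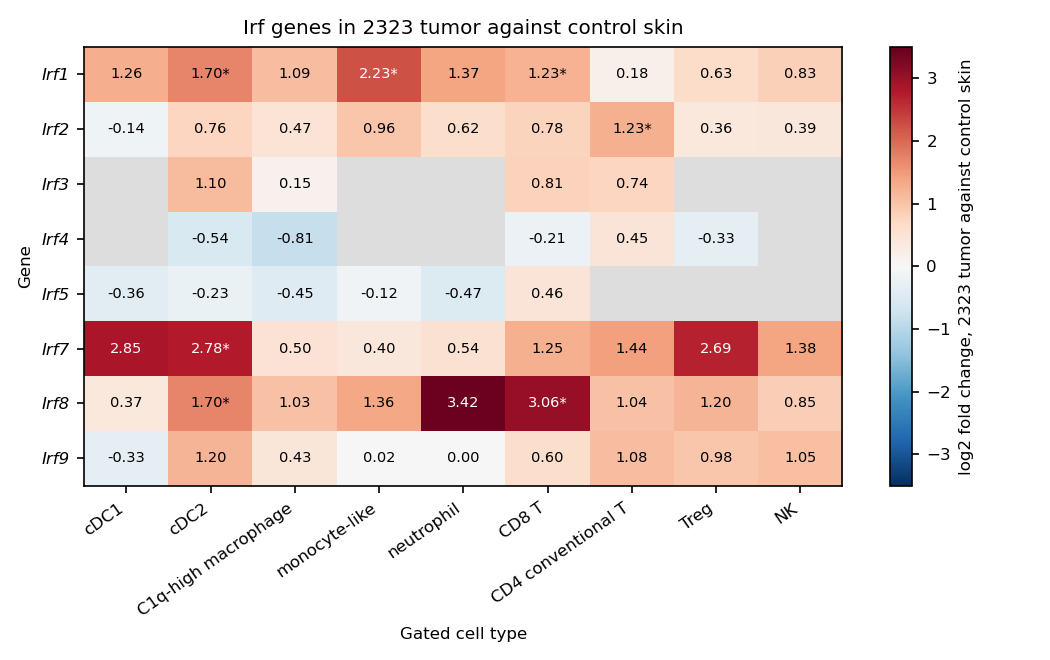
Log2 fold changes of the Irf genes, 2323 tumor against control skin (2 libraries each), from edgeR. Rows are genes, columns are gated cell types, stars mark adjusted p under 0.05, and gray cells did not pass the count filter. The 7 starred values lie between 1.23 and 3.06, and the negative values, of which the lowest is -0.81 for Irf4 in macrophages, carry no star.

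Irf8 was above both control skins in both tumors in all 9 types in which it was tested (32.3% of tests of all genes). Where its control levels were low, as in neutrophils (0 and 0.129), it could pass the count filter through its tumor counts alone. In such a type the direction is largely set by the filter and is no separate evidence. In mast cells, where Irf8 did not pass the filter, the means were 0.252 in control skins and 0.0732 in tumors. In CD8 T cells Irf8 had 0.133 and 0.315 in control skins and 1.53 and 2.11 in tumors, in UMIs per 10000. The groups were far apart, and Irf8 rose by a log2 fold change of 3.06 ± 0.37 (SE, adjusted p = 0.00109). The call held in 12 of 12 alternatives, with log2 fold changes from 2.40 to 3.5. After each cell was thinned to 2000 UMIs, 0.775% of 129 and 4.65% of 43 cells carried an Irf8 UMI in control skins. In tumors 21.7% of 254 and 23.5% of 34 cells did (exact binomial 95% intervals 16.7 to 27.2% and 10.7 to 41.2%). The unthinned shares were 9.3% and 18.6% in control skins and 59.1% and 50% in tumors.

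RNA of other cells was read beside this result. The 8 macrophage markers summed to 0.365 and 0.197 UMIs per 10000 in control CD8 T cells and to 0.595 and 0.974 in tumor CD8 T cells. Of these, 5 of 8 were higher in both tumors, 2 (Adgre1 and Cd68) were lower in both, and none was at 0 in a tumor. In tumor macrophages they summed to 96.2 and 66.8, beside Irf8 levels of 2.61 and 3.39. CD4 conventional T cells of the same tumors carried similar sums of the list (0.921 and 0.996) with Irf8 at 0.364 and 0.418. The CD8 and CD4 gates admit at most 4 UMIs of C1qa, C1qb and C1qc together, and the macrophage gate requires at least 10. These genes are in the list, so the sums are in part fixed by the gates. The part of macrophage RNA in the Irf8 values was not tested. Of these CD4 cells, 5.41% and 3.23% had an Irf8 UMI after thinning, and of control DETCs 1.06% and 0.883%. Median depths were 8941 and 9216.5 UMIs in these CD4 cells and 13941 and 10027.5 in tumor CD8 T cells. The cycling markers Mki67 and Top2a were also higher in tumor CD8 T cells (together 8.76 and 4.83 against 3.45 and 3.53). Without cycling cells the Irf8 change was 2.66 (adjusted p = 0.00159).

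In cDC2, a type with little Irf8 in skin, the gene had 0.483 and 0.374 in control skins and 1.28 and 1.99 in tumors, without overlap. It rose by a log2 fold change of 1.70 ± 0.32 (SE, adjusted p = 0.0251). The call was lost without control skin replicate 1 (1.88, adjusted p = 0.159) and without control skin replicate 2 (1.47, adjusted p = 0.14). The cells of this gate also differed in Lyz2, a myeloid lysozyme gene, which had 45.3 and 46 in control skins and 6.62 and 13.9 in tumors. The 4 markers of plasmacytoid DCs, another cell with high Irf8, summed to 0.168 and 0.0623 in control cDC2 and 0.122 and 0.0817 in tumor cDC2. The part of a changed makeup of the gate in the Irf8 value was not tested.

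The types with the highest Irf8 had smaller differences on the log scale. NK cells went from 6.96 and 6.16 to 12 and 12.2 UMIs per 10000 (log2 fold change 0.85 ± 0.23 SE, adjusted p = 0.070), and cDC1 from 9.79 and 7.24 to 11.9 and 12.8 (0.37 ± 0.28 SE, adjusted p = 0.524). In neither did the groups overlap, and neither passed the threshold. C1q-high macrophages went from 1.21 and 1.31 to 2.61 and 3.39 (1.03, adjusted p = 0.178), and monocyte-like cells from 0.901 and 1.13 to 2.32 and 3.22 (1.36, adjusted p = 0.0641). DESeq2 called both, with adjusted p of 0.027 and 0.019. Neutrophils had the highest fitted value (3.42, adjusted p = 0.436), but it rests on 0 and 4 UMIs in control skins and 24 and 78 in tumors.

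A joint fit over the 10 types tested whether the tumor effect on a member differed between types. Irf8 was called (adjusted p = 0.0188) and the other 7 members were not, while 7.48% of 9537 genes were called. Its fitted effects ran from 0.37 in cDC1 to 3.42 in neutrophils. The call was lost without control skin replicate 1 (adjusted p = 0.242), without 2323 tumor replicate 2 (0.054), without cells of high doublet score (0.0789) and without cycling cells (0.21). Without cycling cells cDC1 had too few cells, so that fit covered 9 types. The stricter gates also left 9 types without cDC1, and there Irf8 was called (adjusted p = 0.0120). In the contrast of lymphoid with myeloid types in the fit of 10 types, 0 members were called, against 2.45% of all genes. The nearest was Irf1, whose effect differed by -0.92 ± 0.32 (SE) on the log2 scale, lymphoid minus myeloid (adjusted p = 0.138), followed by Irf9 (0.74 ± 0.29, adjusted p = 0.196).

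**Figure D3:**
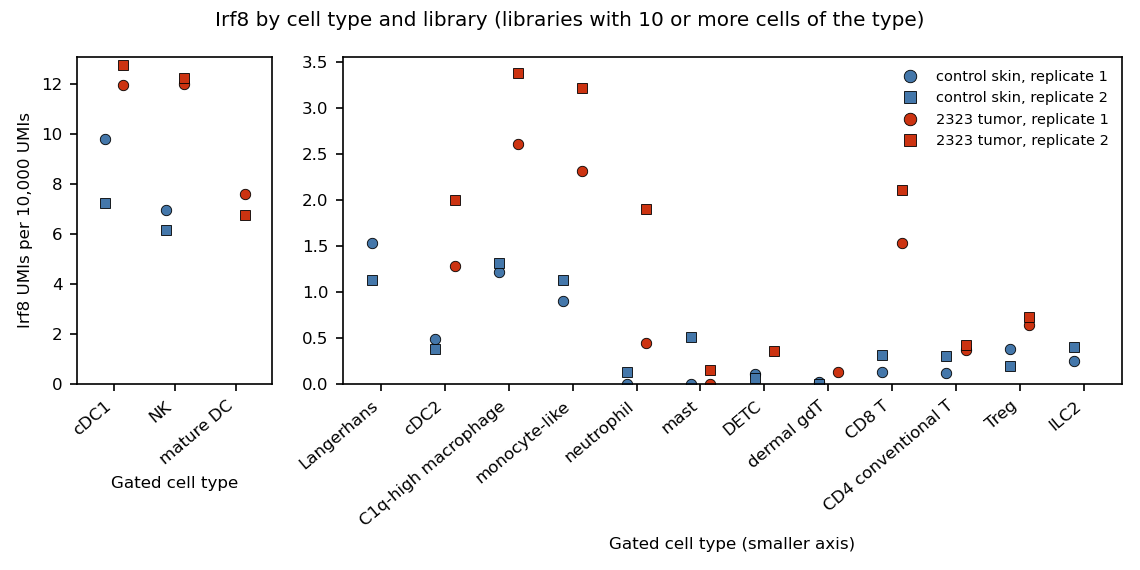
Irf8 UMIs per 10000 UMIs in each gated cell type, 1 point per library with at least 10 cells of the type (circles replicate 1, squares replicate 2), with the types of high Irf8 on a taller axis at the left. Tumor points lie above control points in the 9 tested types, and in mast cells, which were not tested, they overlap. In tested types with low control levels the count filter largely sets the direction. CD8 T cells had 0.133 and 0.315 in control skins and 1.53 and 2.11 in tumors.

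Irf1 was higher in both tumors than in both control skins in 8 of 9 types tested (32.3% of tests of all genes), and 3 were called. In monocyte-like cells it had 0.381 and 0.296 in control skins and 2.07 and 1.06 in tumors (UMIs per 10000), and rose by a log2 fold change of 2.23 ± 0.38 (SE, adjusted p = 0.0312). In cDC2 it had 0.449 and 0.409 in control skins and 1.12 and 2.19 in tumors, a rise of 1.70 ± 0.37 (SE, adjusted p = 0.0366). In CD8 T cells it had 0.498 and 0.788 in control skins and 1.29 and 1.97 in tumors, a rise of 1.23 ± 0.30 (SE, adjusted p = 0.0281). The groups did not overlap in any of the 3, though the tumors lay far from each other. The call in monocyte-like cells was lost without control skin replicate 1 or 2 (adjusted p = 0.236 and 0.196) and without cycling cells (0.053). The call in cDC2 was lost without control skin replicate 1 or 2 (adjusted p = 0.215 and 0.168). That in CD8 T cells was lost without control skin replicate 1 (0.91, adjusted p = 0.146). With adjustment over all types together the calls in cDC2 and CD8 T cells were lost (adjusted p = 0.0587 and 0.0556).

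Irf1 is also an early response gene, so 14 dissociation and immediate early genes were read beside it. In cDC2 they summed to 50.9 and 56.3 UMIs per 10000 in control skins and 80.5 and 151 in tumors, with 6 of 14 genes higher in both tumors and 1 lower in both. In monocyte-like cells the sums were 80.1 and 97.7 against 132 and 90.9, with 2 genes higher and 5 lower in both tumors. In CD8 T cells they were 46.6 and 40.6 against 51.1 and 45.5, with 3 genes higher and 8 lower. Of all tested genes, both tumors lay above in 41.6% in cDC2, 26.6% in monocyte-like cells and 37.3% in CD8 T cells. Both lay below in 19.2%, 16.4% and 20.3%. The heat shock genes of the list, Hspa1a and Hspa1b, were higher in both tumors in each of these types. In cDC2 Hspa1a went from 3.47 and 3.03 to 25 and 42.8, and Hspa1b from 3.9 and 3.23 to 20.1 and 35.3. The sums are therefore not a reading of the immediate early genes alone. The part of dissociation in the Irf1 values was not tested. In C1q-high macrophages the sums were 100.3 and 101 against 103 and 106, with 4 genes higher and 5 lower in both tumors. Irf1 in these macrophages went from 0.708 and 0.652 to 1.64 and 1.72 (log2 fold change 1.09 ± 0.20 SE, adjusted p = 0.124). That difference did not pass the threshold, but DESeq2 called it (adjusted p = 0.00601), as did the edgeR test adjusted over all types together (0.035).

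CD4 conventional T cells, the type with the highest control mean of Irf1, were the exception. Their Irf1 stood at 0.722 and 1.46 in control skins and 1.18 and 1.22 in tumors, so that the groups overlapped (0.18 ± 0.33 SE, adjusted p = 0.812). The remaining types had fitted differences between 0.63 in Tregs and 1.37 in neutrophils, none of them called.

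Irf2, the factor that shares the element of IRF1, had its call in CD4 conventional T cells. There it had 1.13 and 1.08 in control skins and 2.53 and 2.78 in tumors (UMIs per 10000), with little spread within either group. It rose by a log2 fold change of 1.23 ± 0.28 (SE, adjusted p = 0.00991). Of the cells thinned to 2000 UMIs, 24.4% and 19% carried an Irf2 UMI in control skins, and 45.9% and 41.9% in tumors. The call was lost without control skin replicate 1 or 2 (adjusted p = 0.066 and 0.0642), with DESeq2 (0.0666) and without cycling cells (0.0842). In 8 of 9 types both tumors were above both control skins (32.3% of tests of all genes). The exception was cDC1 (1.17 and 1.24 in control skins and 1.34 and 1.05 in tumors). In cDC2 Irf2 went from 0.921 and 0.873 to 1.87 and 1.68 (0.76, adjusted p = 0.0616).

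Irf7, itself an interferon-induced gene, had its call in cDC2. It had 0.124 and 0.229 in control skins and 1.54 and 1.41 in tumors there (UMIs per 10000), and the tumor levels were close to each other. It rose by a log2 fold change of 2.78 ± 0.30 (SE, adjusted p = 0.00578). Of thinned cDC2, the share with an Irf7 UMI came to 2.38% and 2.7% in control skins and 18.8% and 17.1% in tumors. Without control skin replicate 1 the call was lost (2.44, adjusted p = 0.0689).

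The lymphocytes had little Irf7 but more of it in both tumors in all 4 tested types. Tregs had 2 and 1 Irf7 UMIs in all in control skins and 32 and 21 in tumors (2.69 ± 0.69 SE, adjusted p = 0.0773). NK cells went from 0.143 and 0.229 to 0.526 and 0.429 UMIs per 10000 (1.38, adjusted p = 0.121). CD4 conventional T cells went from 0.135 and 0.129 to 0.364 and 0.386 (1.44, adjusted p = 0.114) and CD8 T cells from 0.0863 and 0.0985 to 0.271 and 0.162 (1.25, adjusted p = 0.116). None passed the threshold. A gene this low in control skin can pass the count filter through its tumor counts alone, as Irf7 did in Tregs. In such a test the direction is largely set by the filter, so the direction in these types is no separate evidence.

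In C1q-high macrophages Irf7 went from 0.987 and 1.2 to 2.4 and 1.28 UMIs per 10000 (log2 fold change 0.50, adjusted p = 0.577) and in neutrophils from 0.665 and 1.2 to 1.76 and 1.29 (0.54, adjusted p = 0.841), without overlap in either and with neither called. In monocyte-like cells and cDC1 the tumors lay apart from each other. Monocyte-like cells had 1.04 and 1.95 in control skins and 2.92 and 1.33 in tumors, so that the groups overlapped (0.40, adjusted p = 0.798). In cDC1 tumor replicate 1 had 2.03 and tumor replicate 2 had 0.179, the latter from 10 cells, against 0 and 0.243 in control skins. The fitted difference of 2.85 ± 1.06 (SE, adjusted p = 0.208) therefore rests on 1 tumor.

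**Figure D4:**
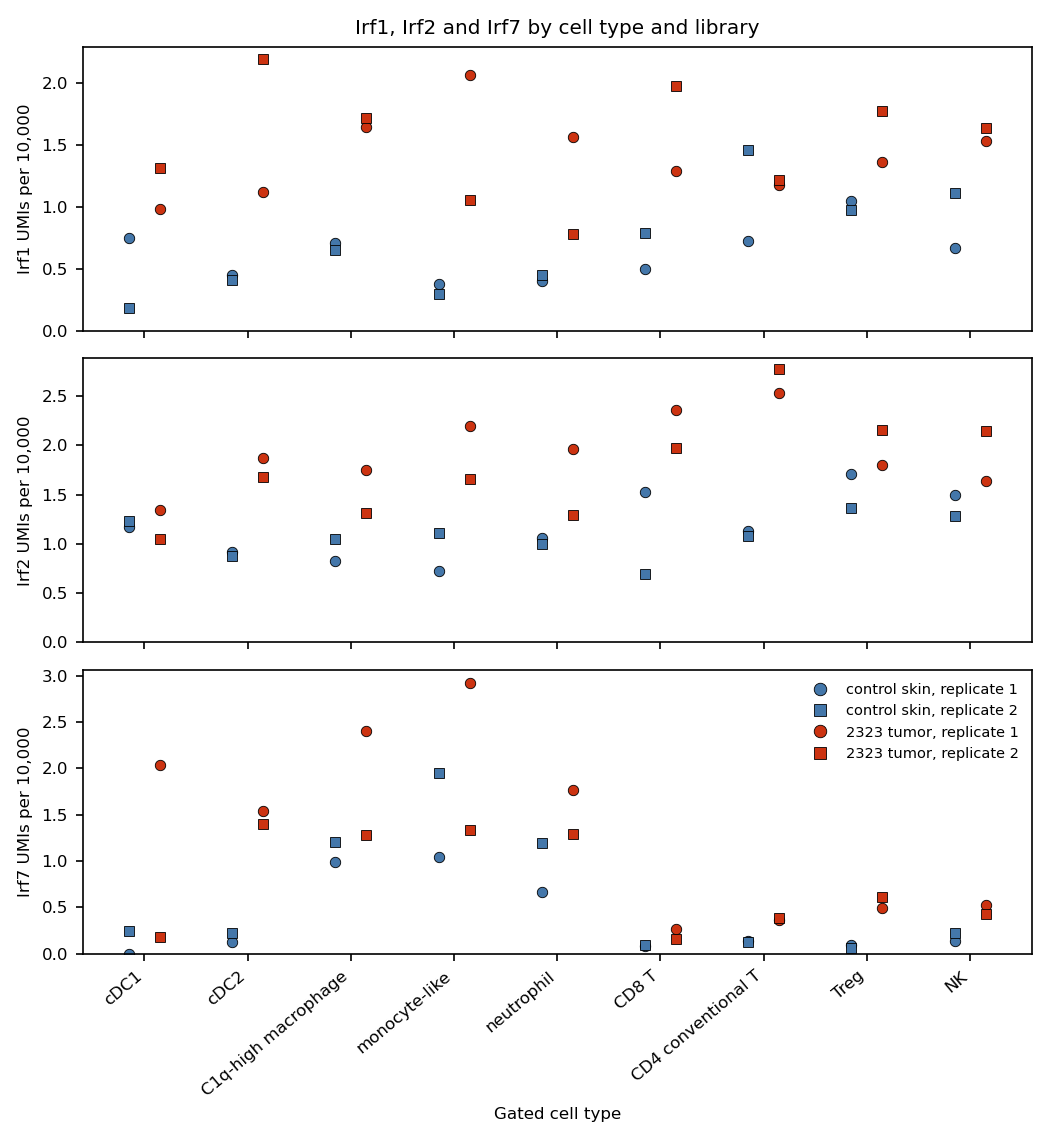
Irf1, Irf2 and Irf7 UMIs per 10000 UMIs in 9 gated cell types, 1 point per library (circles replicate 1, squares replicate 2, blue control skin, red 2323 tumor). Irf1 and Irf2 tumor points lie above control points in 8 of 9 types each, and Irf7 in cDC2 had 0.124 and 0.229 in control skins and 1.54 and 1.41 in tumors.

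Irf9, the DNA-binding subunit of ISGF3, was not called in any type. In cDC2 it went from 0.225 and 0.152 to 0.47 and 0.539 UMIs per 10000 (log2 fold change 1.20 ± 0.34 SE, adjusted p = 0.0703), and in CD4 conventional T cells from 0.181 and 0.301 to 0.606 and 0.369 (1.08, adjusted p = 0.197). Both tumors lay above both control skins in 6 of 9 types (32.3% of tests of all genes). In monocyte-like cells and neutrophils the fitted differences were 0.02 and 0.00. The lowest was -0.33 in cDC1, where the mean was 0.589 in control skins and 0.485 in tumors, with overlap. Irf3, whose product is switched on by phosphorylation, passed the filter in 4 types, where its differences of 0.15 to 1.10 were not called.

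Irf4 and Irf5 had mostly negative fitted differences, none of them called. Irf4 had a negative one in 4 of 5 types, the lowest in C1q-high macrophages, with 0.333 and 0.17 in control skins and 0.131 and 0.185 in tumors (-0.81 ± 0.39 SE, adjusted p = 0.486). In cDC2, where IRF4 is a lineage factor, it had 0.663 and 0.79 in control skins and 0.724 and 0.409 in tumors (-0.54 ± 0.29 SE, adjusted p = 0.279). Whether Irf4 and Irf8 differed in their change within this gate was not tested. Irf5, a factor below Toll-like receptors, had a negative difference in 5 of 6 types. The groups were without overlap in neutrophils, with 1.06 and 1.0 in control skins and 0.809 and 0.73 in tumors (-0.47 ± 0.43 SE, adjusted p = 0.872).

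The types that could not be tested add levels only. Mature DCs, with 44 and 10 cells in tumors and 5 in each control skin, had the highest tumor mean of Irf1 among the 11 types with at least 10 cells in both tumors (3.87 and 2.54 UMIs per 10000), apart from the next type. Their Irf8 in tumors was 7.6 and 6.76. Langerhans cells, of which control skins held 403 and 362 and tumors 3 and 6, had Irf5 at 0.979 and 1.05 in control skins. DETCs, with 474 and 567 cells in control skins, had Irf2 at 0.824 and 0.749 and Irf1 at 0.37 and 0.309, and no other member above 0.187. In mast cells Irf4 had no UMI in any library, and the other members had too few for a test.

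The genes whose levels were most like each member were sought over 52 sums of a type in a library and 8526 genes, by Pearson's r of log2 levels. These sums share libraries, and r is a description. The 3 genes most like Irf1 included Gbp5 (r = 0.828) and Psme2 (0.716), and Irf7 was most like Rnf213 (0.832), Rsad2 (0.830) and Xaf1 (0.825). Irf2 was most like Gbp9 (0.735), Nmi (0.711) and Ifi203 (0.708). Irf5 was most like the antigen presentation gene Cd74 (0.910), Amz1 (0.905) and the MHC class II gene H2-Ab1 (0.897). Irf8 was most like BC035044 (0.783), Mef2c (0.753) and Lrrk1 (0.732), and Irf4 like Abhd6 (0.718), Syt11 (0.702) and Ccr7 (0.683). Irf3 was nearest to Ccdc66 (0.661) and Irf9 to Chmp2a (0.732).

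The other genes of the pathway were read from lists in the same fits, where the median log2 fold change over all genes was 0.03 and 2.25% of all tests were called higher and 2.31% lower. Of 12 interferon receptors and signal transducers, 11 of 104 tests over the 10 types were called higher and 4 lower (median 0.22). Usp18, an interferon-induced brake on the type I receptor, was called higher in cDC2, CD8 T cells and NK cells (adjusted p = 0.0251, 0.00369 and 0.0175). The 4 lower calls were receptor genes in T cells, namely Ifnar2 in CD8 T cells (1.77 and 1.48 to 0.462 and 0.719, adjusted p = 0.0042) and Ifnar1, Ifnar2 and Ifngr2 in CD4 conventional T cells.

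Of the 14 ISGF3 targets, 25 of 88 tests were called higher and 0 lower (median 1.25). They were 8 of 14 in cDC2, 6 of 10 in CD8 T cells, 6 of 8 in CD4 conventional T cells and 5 of 8 in NK cells. C1q-high macrophages and monocyte-like cells had 0 of 14 each, neutrophils 0 of 11, and cDC1, Tregs and mast cells 0 of 3 each. Of all genes, 4.42% were called higher in cDC2, 5.26% in CD8 T cells, 6.05% in CD4 conventional T cells and 1.62% in NK cells, but 0.162% in macrophages and 0.532% in monocyte-like cells. In each of the latter pair of types 13 of the 14 targets had a positive log2 fold change. In cDC2, where Irf7 rose, the antiviral gene Oasl2 went from 0.0786 and 0.125 to 1.16 and 1.05 (adjusted p = 0.00435). In NK cells Rsad2, which encodes the antiviral enzyme viperin, went from 0.119 and 0.131 to 0.92 and 0.756 (adjusted p = 0.00414). Xaf1 rose in cDC2, CD8 T cells and CD4 conventional T cells, with adjusted p of 0.0108, 0.00295 and 0.0118.

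Of the 20 interferon gamma and IRF1 targets, 40 of 158 tests were called higher and 0 lower (median 0.96). They were 15 of 20 in cDC2, 6 of 20 in monocyte-like cells, 5 of 20 in C1q-high macrophages, 4 of 15 in cDC1 and 4 of 17 in CD8 T cells. CD4 conventional T cells and NK cells had 2 of 16 each, Tregs 1 of 14, mast cells 1 of 6 and neutrophils 0 of 14. Cxcl9, a chemokine for CXCR3-bearing T cells, had no UMI in control monocyte-like cells and 5.26 and 4.89 UMIs per 10000 in those of tumors. In cDC1 it went from 0.251 and 0.223 to 5.56 and 6.57 (adjusted p = 0.00279). The guanylate-binding protein gene Gbp2 went from 0.173 and 0.191 to 2.17 and 1.81 in monocyte-like cells (adjusted p = 0.00248). Psmb9, a subunit of the immunoproteasome, rose in cDC2, CD8 T cells, CD4 conventional T cells, Tregs and NK cells (adjusted p from 0.00745 to 0.0295).

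Of the 17 sensors and kinases upstream of IRF3, IRF5 and IRF7, 8 of 95 tests were called higher and 0 lower (median 0.33). Ifih1, which encodes the RNA sensor MDA5, was called in CD8 T cells, CD4 conventional T cells and NK cells, and the RNA receptor gene Tlr3 in cDC1 (0.251 and 0.142 to 1.37 and 0.836, adjusted p = 0.0446). Of 11 partners and corepressors of IRFs, 3 of 74 tests were called higher and 8 lower (median -0.22). Irf2bp2, a corepressor that binds IRF2, fell in CD8 T cells (2.55 and 2.76 to 0.498 and 0.673, adjusted p = 0.000504) and in CD4 conventional T cells (3.29 and 3.18 to 1.04 and 1.3, adjusted p = 0.00276), the type in which Irf2 rose. Batf, whose product pairs with IRF4 and IRF8, fell in cDC2 (0.91 and 0.845 to 0.396 and 0.49, adjusted p = 0.0304) and rose in CD8 T cells (0.79 and 0.768 to 1.39 and 1.74, adjusted p = 0.0451). Of 7 interferon genes, Ifng rose in CD4 conventional T cells (0.925 and 0.559 to 2.23 and 2.97, adjusted p = 0.00363). Ifnb1 rose in cDC2, from 0 and 0.00693 in control skins to 0.201 and 0.588 in tumors (adjusted p = 0.0227). That comparison rests on almost no Ifnb1 UMIs in control skins.

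**Figure D5:**
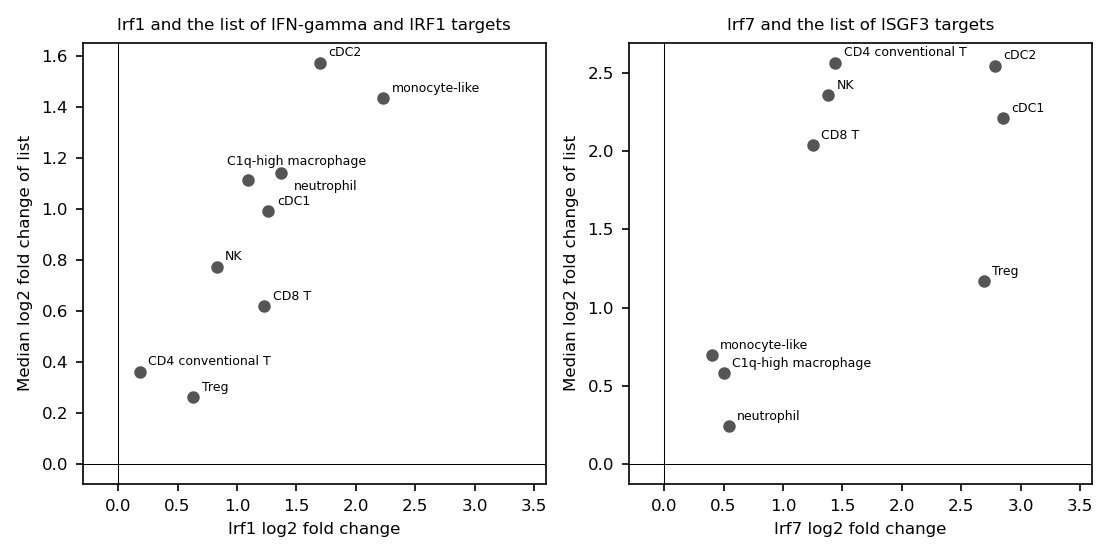
Log2 fold change of Irf1 (left) and Irf7 (right) in each of 9 gated cell types against the median log2 fold change in the same type of the interferon gamma and IRF1 targets (left) or the ISGF3 targets (right), 2323 tumor against control skin, 1 point per type. Types with the highest Irf1 values (monocyte-like cells 2.23, cDC2 1.70) have list medians of 1.43 and 1.57. CD8 T cells, where Irf1 was also called (1.23), have a list median of 0.617. In the right panel C1q-high macrophages, monocyte-like cells and neutrophils lie low, with medians of 0.58, 0.69 and 0.24. The medians of cDC1 and Tregs there rest on 3 tested targets each. The points share libraries, and no correlation was tested.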

How the data were processed

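CD45+ cells of 2 control skins and 2 tumors of the 2323 line were measured, 1 library each. The authors aligned reads to mm10 with Cell Ranger, 7.1.0 in their notes and 7.0.1 in the file headers, and deposited unnormalized counts of UMIs. Whether intronic reads were counted is not given in the sources used here. Barcodes had to pass the cell filters of the study's methods, namely 100 genes, 1000 UMIs, a mitochondrial share within 15% and a complexity of 0.8 (log10 genes over log10 UMIs). Cells were then gated on lineage marker UMIs, and a cell that met several gates was left out. Gate limits were set after marker UMIs had been seen. The members and the gene lists were chosen with earlier results of these data known.

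UMIs were summed by gate and library where all 4 libraries had 10 cells or more. The sums were tested with edgeR 4.0.16 (TMM, filterByExpr, quasi-likelihood test), and p-values were adjusted by Benjamini-Hochberg within a cell type over its whole gene table, at 0.05. Each SE was obtained by dividing the size of the log2 fold change by the root of the F statistic. A joint edgeR fit with a library block tested differences between types. DESeq2 1.42.0 was an alternative, as were no count filter, every barcode, removal of cells of high doublet score (otherwise kept), stricter gates, no cycling cells, adjustment over all types, a replicate block and leaving out each library. All 8 members are named, and per list and type up to 4 other genes of lowest adjusted p. The labels call the samples replicates without naming animals, so p-values measure the spread between libraries. Intervals are Clopper-Pearson and cover counting error only. The fits were tested on simulated data. Some genes of the lists are not reported here.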

Additional observations from a re-analysis of the deposited data

Results flagged for a closer look

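The tumor effect on Irf8 differed between the 10 fitted cell types in the joint edgeR fit (adjusted p = 0.0188), and that of the other 7 members was not called. In the same fit 7.48% of 9537 genes were called. The fitted log2 fold changes were 0.37 in cDC1, 0.85 in NK cells, 1.03 in C1q-high macrophages, 1.04 in CD4 conventional T cells, 1.20 in Tregs, 1.36 in monocyte-like cells, 1.70 in cDC2, 3.06 in CD8 T cells and 3.42 in neutrophils. These 9 values come from the separate fits of each type. Irf8 was higher in 2 of 2 tumors than in both control skins in each of these 9 types, which share the same libraries. Over all genes and the 10 types this held in 32.3% of tests. In a type with few Irf8 UMIs in control skins, such as neutrophils, the count filter largely sets that direction. Mast cells, which were also in the joint fit, had a mean of 0.252 UMIs per 10000 in control skins and 0.0732 in tumors, with overlap. The neutrophil value rests on 0 and 4 UMIs in control skins and 24 and 78 in tumors, ran from 2.13 to 8.29 when 1 library was left out, and had no fitted value with cells of high doublet score removed. Its tumor mean was 1.17 UMIs per 10000 from summed counts and 0.319 as a mean over cells. The adjusted p was 0.242 without control skin replicate 1 and 0.054 without 2323 tumor replicate 2, which ends the call. In the joint edgeR fit the call was also lost with cells of high doublet score removed (adjusted p = 0.0789) and without cycling cells (0.21, in 9 types). With 2 libraries per group, no library could be tested for standing apart from its group.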

How the results depend on the processing

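The 7 higher calls kept their direction under all 12 alternatives, and 0 members were called lower under any of them. Without a filter on low counts 17 were called higher, where 3403 of 150113 tests of all genes were called higher (main setting 1413 of 62775). Leaving out 1 library changed the number of calls, and fewer samples then estimate the spread. With DESeq2 9 were called, with every barcode 8, with cells of high doublet score removed 7, with stricter gates 7, without cycling cells 8 and with adjustment over all types 7. Over all genes, the tests called higher in these settings, in the same order, were 919 of 62775, 1476 of 63220, 1407 of 62239, 1240 of 51699, 1059 of 51241 and 1178 of 62775. Of the 7 calls, 1 was kept without control skin replicate 1, 3 without control skin replicate 2, all 7 without either tumor replicate, 6 with DESeq2, 5 without cycling cells and 5 with adjustment over all types, where Irf1 in CD8 T cells (adjusted p = 0.0556) and in cDC2 (0.0587) missed the threshold.

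The effect of 1 member differed between types. It was Irf8. There were 2 without the low-count filter (Irf7 and Irf8), 0 with cells of high doublet score removed, and 0 to 2 when 1 library was left out (Irf7 and Irf8 without 2323 tumor replicate 1, Irf7 alone, at an adjusted p of 0.0216, without 2323 tumor replicate 2). Without cycling cells it was 1 again, Irf7 in place of Irf8, in a fit of 9 types that lacked cDC1. The fit with stricter gates also held 9 types without cDC1, and it called Irf8 (adjusted p = 0.0120). The cause of the change without cycling cells was not tested. The lymphoid to myeloid contrast called 0 members, 1 (Irf1) without the low-count filter, and 0 in each fit that left out 1 library.

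With the replicate number as a block, 9 were called higher, all 7 among them, where 1305 of 62775 tests of all genes were called higher. Deviations of same-numbered libraries correlated between -0.107 (Tregs) and 0.0702 (neutrophils) over the 10 types, and the labels name no shared batch, so the samples share only a number. Depth limits mast cells, with medians of 2983 to 4260 UMIs per cell, in which no member could be tested. Levels as means over cells stayed within 1 SD of those from sums in 13 of 14 group means of the called genes. At full depth all 14 group means of the shares of cells with a UMI moved by more than 1 SD from their thinned values. Over all genes and types, 1413 of 62775 tests were called higher and 1447 lower, against 919 of 62775 higher with DESeq2. Without the low-count filter 3403 of 150113 were called higher and 3006 lower.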

Other observations

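The sort also held cells with collagen UMIs (16 and 35 in control skins, 70 and 110 in tumors), which entered no comparison. Their Irf1 level stood at 0.543 and 0.75 in control skins and 2.31 and 2.71 in tumors (UMIs per 10000), without overlap. Irf2 stood at 1.01 and 0.978 in control skins and 0.931 and 1.05 in tumors, with overlap. Irf5 stood at 0.84 and 1.02 in control skins and 0.119 and 0.127 in tumors, and Irf8 stood at 0.617 and 1.39 in control skins and 0.274 and 0.173 in tumors, both lower in each tumor than in each control skin. In the 10 fitted types both tumors lay above in 32.3% of tests of all genes and below in 18.5%, and no such share was taken for these cells. Any cell with at least 5 UMIs of collagen genes and Dcn was placed here, also where it met an immune gate. These values were not tested, nor was the part of a changed makeup of these cells.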
